A study of Mus musculus with 4 samples.

Results

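Lrrc37a, a gene on the minus strand of mouse chromosome 11, carried many IGF2BP3 eCLIP-seq clusters in its coding sequence. The clusters described here are all rows of the deposited tables between positions 103450000 and 103510000 of chromosome 11 (mm10), which gave 57 of 337234 clusters in replicate 1 and 50 of 216354 clusters in replicate 2. The window was chosen by the enrichment values of these same tables, because many clusters in it had a high log2(fold change). The numbers and fold changes of the clusters are therefore given as a description, and no test was made on them. All 57 and all 50 clusters lay on the minus strand, and Lrrc37a was the annotated gene on that strand that contained them.

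The working name of the locus refers to Plekhm1, because for all 107 clusters the nearest transcription start among curated RefSeq transcripts was that of Plekhm1. The clusters do not lie in that gene. GENCODE M21 places Plekhm1 at chr11:103364275-103412687, outside the window. It had 16 clusters in replicate 1 and 8 in replicate 2, of which 0 were significant in either. Over all clusters 4.92% and 13.2% were significant by the thresholds given below, so this is no result about Plekhm1. Lrrc37a spans chr11:103451955-103504597 in GENCODE M21 (ENSMUSG00000078632.3). Its 1 annotated transcript has 11 exons and 9647 bases, all of them coding, so no untranslated region is annotated. It is marked as incomplete at its 3′ end. A predicted RefSeq model is longer, from 103450707 to 103505008 with 14 exons. Its coding sequence runs from 103450743 to 103504867, which leaves bases outside it at both ends.

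The libraries came from whole testes of wild type C57BL/6 mice at 8 weeks of age, which hold germ cells and somatic cells. For each preparation, 2 testes were dissociated and exposed 3 times to UV light of 254 nm at 400 mJ/cm2, which links proteins to the RNA they touch. In the IGF2BP3 IP group (2 libraries), RNA was recovered with an antibody to IGF2BP3 (Abcam). In the SMInput group (2 libraries), 2% of the lysate was sequenced with no antibody as the background. Replicate 1 held 5133438 usable IP reads and 8706391 SMInput reads, and replicate 2 held 4637612 and 16696122.

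IGF2BP3 is an RNA-binding protein with RNA recognition motifs and KH domains, found in the cytoplasm, where it affects the stability and translation of bound mRNAs. It has been described as a reader of N6-methyladenosine (m6A), a mark that is placed mostly on adenosines in the DRACH class of sequences, and its KH domains prefer CA-rich RNA. Lrrc37a belongs to the LRRC37 family, whose members encode large leucine-rich repeat proteins with long repetitive regions and are expressed mainly in testis.

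Exons of all 7 germ cell genes examined (Ddx4, Dazl, Sycp3, Acrv1, Tnp1, Prm1 and Prm2) held clusters, 119 in replicate 1 and 116 in replicate 2. The highest SMInput read number of a cluster among them was 426 in replicate 1 and 665 in replicate 2, both in the protamine gene Prm2. Exons of all 5 somatic testis genes (Cyp17a1, Insl3, Sox9, Clu and Acta2) also held clusters, 63 and 69, with at most 319 and 521 SMInput reads in a cluster, both in Insl3. RNA of both kinds of cell was therefore present in the libraries, and the cell type in which the Lrrc37a reads arose was not tested.

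A cluster was counted as significant when its log2(fold change) of IP over SMInput and its −log10(P value) were both 2 or higher. In replicate 1, 46 of the 57 clusters passed, and 11 did not. In replicate 2, 41 of 50 passed, and 9 did not. Over the whole tables, 4.92% of clusters passed in replicate 1 and 13.2% in replicate 2, a background from which nothing can be read here, since these values had chosen the locus. The significant clusters of Lrrc37a had a median log2(fold change) of 3.67 in replicate 1 (range 2.25 to 5.57) and 4.0 in replicate 2 (range 2.03 to 5.24). Over all significant clusters in coding sequence, 4697 and 5794 in number, the medians were 2.69 and 2.55.

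The reads behind these ratios were worked out from the listed values. A significant cluster of Lrrc37a held a median of 32 IP reads against 4 SMInput reads in replicate 1, and 17 against 6 in replicate 2. IP reads ranged from 9 to 113 in replicate 1 and from 5 to 119 in replicate 2, and SMInput reads from 1 to 14 and from 1 to 22. Only 2 significant clusters in replicate 1 and 3 in replicate 2 rested on a single SMInput read. The background was low in both replicates, so that a change of 1 or 2 SMInput reads moves the fold change of many of these clusters. The tables do not say whether a read that spans 2 touching clusters was counted in both, and read numbers of neighbouring clusters were not added up.

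All 46 significant clusters of replicate 1 had their centre in coding sequence. In replicate 2, 38 of 41 did (92.7%), and 3 lay in introns. Among all significant clusters of the tables, 28.3% in replicate 1 and 20.3% in replicate 2 had their centre in coding sequence. The shares cannot be compared directly, because with no untranslated region annotated in Lrrc37a every cluster in one of its exons counts as coding. The 3 intronic clusters of replicate 2 were at chr11:103483919-103483936, chr11:103483937-103483988 and chr11:103454129-103454169, with 5, 5 and 6 IP reads against 1 SMInput read each. None of them overlapped a cluster of replicate 1.

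Within the transcript, the clusters of exon 1 had the most IP reads. Exon 1 is 7190 bases long (chr11:103497408-103504597), 74.5% of the annotated transcript, and held 33 of the 46 significant clusters in replicate 1 (71.7%) and 23 of 41 in replicate 2 (56.1%), both below its share of the bases. Its significant clusters had a median log2(fold change) of 4.22 and 4.17, with a median of 42 and 44 IP reads. The significant clusters in the other exons, 13 and 15 in number, had medians of 2.76 and 3.11, with a median of 14 IP reads in both replicates. The clusters of exon 1 thus stood on about 3 times as many IP reads as those further along the transcript.

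Exon 1 was itself uneven. Its last 1100 bases (chr11:103497408-103498507) held 18 significant clusters in replicate 1 and 10 in replicate 2, with a median of 62.5 and 65 IP reads and a median log2(fold change) of 4.27 and 4.21. The remaining, upstream bases of exon 1 held 15 and 13 significant clusters, with a median of 28 and 22 IP reads. In all, significant clusters covered 19.7% of the bases of exon 1 in replicate 1 and 16.3% in replicate 2.

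Exons 2 to 7 are short, between 72 and 81 bases each. Exons 2 to 5 held significant clusters in both replicates, and significant clusters covered 100% of exon 4 in each. Exons 6 and 7 were significant in replicate 1 alone, with a best log2(fold change) of 3.67 and 2.48 there and of 1.72 and 1.85 in replicate 2. Exon 8 went the other way, with a best value of 4.43 in replicate 2 and 1.88 in replicate 1. Exon 9, which has 1739 bases, held 5 and 6 significant clusters with at most 14 and 17 IP reads in any cluster. Exons 10 and 11, at the incomplete 3′ end, held 0 clusters in either replicate.

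By number of significant clusters, Lrrc37a ranked 2 among 5855 genes with at least 1 such cluster in replicate 1 and 4 among 8410 in replicate 2. The median gene had 2 in each. In replicate 1 St6galnac2 (63 clusters) stood above it, and in replicate 2 the genes above it included St6galnac2 (56) and Nsun4 (42). By clusters in coding sequence alone, Lrrc37a ranked 1 in replicate 1 with 46, and in replicate 2 it shared rank 1 with Nsun4, both with 38. Genes with annotated untranslated regions can lose clusters in this ranking, which Lrrc37a cannot. By clusters in exons of any kind, Lrrc37a ranked 2 and 4. Its coding sequence is long, and per kb of it there were 4.77 significant clusters in replicate 1 and 3.94 in replicate 2. Among 2185 protein-coding genes with at least 3000 bases of coding sequence and any cluster, these densities ranked 4 and 6. Several genes with shorter coding sequences were denser, among them Prr30 with 27.4 and 25.8 per kb.

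The 5 significant clusters with the largest log2(fold change) in replicate 1 were all in exon 1. The cluster at chr11:103499088-103499098 was highest, at 5.57 with 56 IP and 2 SMInput reads. It was followed by chr11:103498041-103498101 at 5.35 (72 and 3 reads) and chr11:103498746-103498752 at 5.32 (47 and 2 reads). The other two were chr11:103498102-103498135 at 5.24 (67 and 3 reads) and chr11:103498979-103499087 at 4.96 (92 and 5 reads). These 5 clusters fall at 3 places in exon 1, since the 1st and 5th touch each other, as do the 2nd and 4th.

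In replicate 2 the highest value was at the same place, chr11:103499090-103499098, with a log2(fold change) of 5.24 and 63 IP against 6 SMInput reads. Next came chr11:103497854-103497884 at 5.17 (40 and 4 reads) and chr11:103497758-103497848 at 5.16 (119 and 12 reads). The last of these had the highest −log10(P value) of the locus in either replicate, 80.3. The cluster at chr11:103501059-103501082 followed at 4.94 (34 and 4 reads). The only one of the 5 outside exon 1 was in exon 4, chr11:103492182-103492212, at 4.85 (16 and 2 reads).

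In replicate 1 the significant cluster with the lowest log2(fold change) was chr11:103456941-103456984 in exon 9 (2.25, 14 IP and 5 SMInput reads), and that with the lowest −log10(P value) was chr11:103457665-103457727 in exon 9 (2.18, 10 and 3 reads). Just outside were chr11:103504508-103504564 in exon 1, with a log2(fold change) of 1.95, and the intronic chr11:103496511-103496520, with a −log10(P value) of 1.91, which a cluster in exon 2, chr11:103496041-103496050, shared with the same read numbers. In replicate 2 the lowest passing clusters were chr11:103456548-103456673 in exon 9 (log2(fold change) 2.03, 17 and 15 reads) and chr11:103504114-103504128 in exon 1 (−log10(P value) 2.19, 7 and 5 reads). A second cluster, chr11:103496082-103496103 in exon 2, had the same read numbers and the same values as the latter. Just outside in replicate 2 were chr11:103464356-103464432 in exon 7 (log2(fold change) 1.85, shared by chr11:103460829-103460878 in exon 8 and chr11:103457615-103457675 in exon 9) and the intronic chr11:103488033-103488115 (−log10(P value) 1.95). Differences of a few reads separate these clusters, and the call of any one of them is not firm.

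Overlap between the replicates was counted for this locus only, so its shares have no value over all significant clusters beside them. Of the significant clusters of Lrrc37a, 36 of 46 in replicate 1 (78.3%) and 30 of 41 in replicate 2 (73.2%) shared 1 base or more with a significant cluster of the other one. With touching clusters joined, these made 18 sites that were significant in both replicates, or 9 with both thresholds at 3. By the number at the thresholds of 2, Lrrc37a ranked 2 among 2077 genes with such sites, and the median was 1. Exon 1 held 10 of the sites and exon 9 held 4, and exons 2, 3, 4 and 5 held 1 each. Over 61 pairs of overlapping clusters, significant or not, the log2(fold change) values correlated between replicates with r = 0.702 (Pearson) and rho = 0.642 (Spearman). This is a description across clusters of one mRNA, which share their libraries and are not independent.

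The site with the largest smaller log2(fold change) of both replicates was chr11:103498979-103499098 in exon 1. Its clusters reached 5.57 in replicate 1, with at most 92 IP reads, and 5.24 in replicate 2, with at most 66. The next was the longest site, chr11:103497595-103498269, in which 12 touching clusters of replicate 1 and 8 clusters of replicate 2 joined into 675 bases. The log2(fold change) of its clusters ran from 3.18 to 5.35 in replicate 1 and from 3.88 to 5.17 in replicate 2. It contained the cluster with the most IP reads of each replicate, 113 and 119.

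The site that ranked 3 was the whole of exon 4, chr11:103492140-103492212, with best values of 4.76 and 4.85 although no cluster in it held more than 16 IP reads in either replicate. Its end lies 1 base past the exon in both tables. Then came 5 more sites in exon 1. The site at chr11:103498690-103498752 reached 5.32 in replicate 1 and 4.72 in replicate 2, and that at chr11:103501018-103501082 reached 4.26 and 4.94. The site at chr11:103498273-103498375, just upstream of the longest site, reached 4.25 and 4.27 with up to 88 and 107 IP reads. The site at chr11:103503327-103503390, the furthest upstream of the 18, was formed by 1 cluster in each replicate with 4.60 (43 and 3 reads) and 4.24 (21 and 4 reads). The site at chr11:103497435-103497529, near the end of exon 1, reached 3.97 and 4.26.

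The remaining sites were lower. In exon 1, chr11:103500947-103500975 had 3.70 and 3.10, and chr11:103499571-103499607 had 3.57 and 2.94. In exon 9, chr11:103458036-103458111 had 2.88 and 3.11, and in exon 5, chr11:103491104-103491185 had 2.67 and 3.26. The 6 sites that ranked below these had a smaller value between 2.21 and 2.57. The 4 sites of exon 9 each held at most 16 IP reads in a cluster of either replicate.

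The longest site contained a tandem repeat in the coding sequence, a property that played no part in the choice of the window. In exon 1, between chr11:103497855 and 103498205, 9 copies of a 39-base unit follow each other without a gap, 351 bases in all. Each copy has between 1 and 4 bases that differ from the consensus of the 9. The length of the unit is a multiple of 3, so the reading frame is the same in each copy. The unit is CA-rich: CA makes up 21.1% of the dinucleotides of the array and 10.8% of those in the rest of exon 1, and 77.5% of the bases of the array are A or C, against 58.0% in the rest. Each unit holds between 6 and 8 CA dinucleotides, and 9 of 9 hold 1 DRACH match. The consensus and 4 of the units are given to show how alike the copies are, 5′ to 3′ on the minus strand of mm10, with the bases that differ from the consensus in capitals.
consensus of the 9 units: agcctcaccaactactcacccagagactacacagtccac
unit 1, chr11:103498167-103498205: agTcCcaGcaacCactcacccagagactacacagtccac
unit 3, chr11:103498089-103498127: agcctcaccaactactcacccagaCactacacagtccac
unit 5, chr11:103498011-103498049: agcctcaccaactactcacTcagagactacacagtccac
unit 9, chr11:103497855-103497893: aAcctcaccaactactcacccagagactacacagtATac

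Significant clusters covered 100% of the array in both replicates. The clusters that overlapped it were 6 in replicate 1, with a log2(fold change) between 3.18 and 5.35 and between 67 and 113 IP reads. In replicate 2 there were 5, between 4.0 and 5.17 with 40 to 98 IP reads. SMInput reads of these clusters ranged from 3 to 14 and from 4 to 22. The array was therefore one of the best-covered stretches of the transcript, but it was not the only one, as 40 and 36 significant clusters did not touch it. The copies of the repeat are so alike that a short read could be placed in more than 1 of them. Among the significant clusters, 7 in replicate 1 and 6 in replicate 2 had at least 1 word of 30 bases that occurs more than once in the gene, at most 4 times, and 5 and 4 of these clusters touched the array. For clusters shorter than 30 bases, the word of 30 bases around the centre was used, which reaches past the cluster. The place of a read within the array is thus less certain than in clusters with no such word. Outside the array, exon 1 held such words at chr11:103501068-103501081 and chr11:103499743-103499785 in replicate 1, and at chr11:103501059-103501082 in replicate 2.

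Most clusters of the locus have no exact copy elsewhere in the genome. Of the significant clusters, 45 of 46 in replicate 1 (97.8%) and 37 of 41 in replicate 2 (90.2%) had no such word that is found at another place in the assembled chromosomes, on either strand. The exceptions in exons were 1 cluster in exon 3 in replicate 1 and clusters in exons 8 and 9 in replicate 2, and the copies of their words lay 1 time each elsewhere, in the region of the neighbouring gene Gm884. The other exception was the intronic cluster chr11:103483937-103483988, which held a word with 142693 copies elsewhere. None of the clusters of exon 1 had such a copy.

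Exon 1 also held a second, more diverged repeat, which overlapped some of its upstream sites but not all of them. The stretch of the top site that was covered in both replicates, chr11:103499042-103499098, has 57 bases, and 7 stretches of exon 1, itself included, matched it without gaps at 70% or more of the bases. Of these 7, 4 overlapped a significant cluster in replicate 1 and 2 did so in replicate 2, the top site among them. At 60% or more there were 12 copies, and of these 7 overlapped a significant cluster in replicate 1 and 5 did so in replicate 2, all 5 of them also among the 7. Of all windows of 57 bases in exon 1, 31.0% and 26.9% overlapped a significant cluster. The stretch was chosen as the top site, and its copies were counted after the values had been seen, so these numbers are a description only.

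The copies differed in whether they carried a cluster. The copy at chr11:103501028-103501084, 75.4% identical, had a best log2(fold change) of 4.26 in replicate 1 and 4.94 in replicate 2, and the copy at chr11:103498697-103498753, 61.4% identical, had 5.32 and 4.72. By contrast, the copy at chr11:103500692-103500748, 73.7% identical, and that at chr11:103500062-103500118, 75.4% identical, overlapped no significant cluster in either replicate. A copy at chr11:103499393-103499449, 77.2% identical, was significant in replicate 1 alone, at 3.35 with 24 IP and 4 SMInput reads. Likeness to the top site over these 57 bases therefore did not order the copies by their listed enrichment. Some copies share exact words, so a read from one could be placed in another. The word of 30 bases at chr11:103501068-103501081 in replicate 1 occurs 2 times in the gene, as does that at chr11:103501059-103501082 in replicate 2. How reads were placed between the copies was not tested, and the contrast between copies with and without clusters is not firm. The sequences are shown so that copies with and without clusters can be compared, 5′ to 3′ on the minus strand of mm10, with capitals for the bases that differ from the top site.
top site, chr11:103499042-103499098: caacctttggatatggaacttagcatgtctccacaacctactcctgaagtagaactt
copy with clusters in both replicates, chr11:103501028-103501084: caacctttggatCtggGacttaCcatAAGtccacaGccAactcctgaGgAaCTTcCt
copy with clusters in both replicates, chr11:103498697-103498753: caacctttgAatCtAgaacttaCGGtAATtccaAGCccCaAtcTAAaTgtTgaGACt
copy with a cluster in replicate 1, chr11:103499393-103499449: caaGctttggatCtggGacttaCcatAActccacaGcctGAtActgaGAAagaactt
copy without a significant cluster, chr11:103500692-103500748: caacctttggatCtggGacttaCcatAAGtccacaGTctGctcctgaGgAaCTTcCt
copy without a significant cluster, chr11:103500062-103500118: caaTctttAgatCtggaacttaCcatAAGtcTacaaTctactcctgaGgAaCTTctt

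In windows of 100 bases around the centre, the significant coding clusters of Lrrc37a were rich in A and C. The median window had 59.0% A or C in replicate 1 and 55.5% in replicate 2, against 50% and 49.0% over all significant clusters in coding sequence. Of those, 11.2% and 19.3% lay above the median of Lrrc37a. The median share of CA dinucleotides was 10.6% and 10.1%, against 8.08% and 7.07%. Without the clusters that touch the 39-base array the medians of A or C were 57.5% and 54.0%, so part of the difference lay in the array. These were no higher than in exon 1 outside the array as a whole, where 58.0% of bases were A or C and CA made up 10.8% of dinucleotides, against a median of 9.09% in these windows of both replicates. The difference was smaller without the flanks: in the clusters themselves, the median of A or C was 54.4% and 52.6%, against 50% and 49.2% over all significant coding clusters, and 32.7% and 34.8% of the latter lay above it. The median CA share of the clusters themselves was 8% and 8.33%, against 7.69% and 7.41% over all, and 7.38% and 7.69% without those that touch the array.

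DRACH matches were found in 44 of 46 windows in replicate 1 (95.7%, 95% Wilson interval 85.5% to 98.8%) and in 37 of 38 in replicate 2 (97.4%, 86.5% to 99.5%). Over all significant coding clusters 84.7% and 84.0% of windows held one. The pentamer GAACA was found in 7 windows in replicate 1 (15.2%, 7.57% to 28.2%) and in 9 in replicate 2 (23.7%, 13.0% to 39.2%), against 10.4% and 10.7% of all. AAACC was found in 7 and 5 windows, 15.2% (7.57% to 28.2%) and 13.2% (5.75% to 27.3%), against 9.58% and 8.46%. In the clusters themselves, without flanks, GAACA was found in 8.7% and 10.5%, against 6.58% and 5.97% of all, and AAACC in 6.52% and 5.26%, against 5.47% and 4.78%. DRACH was then found in 65.2% and 73.7%, against 61.1% and 59.2%. GGACT was found in 4 and 3 windows, 8.7% (3.43% to 20.3%) and 7.89% (2.72% to 20.8%), against 10.1% and 9.16%. The intervals cover counting error only and treat neighbouring windows as separate, although many overlap. All motifs were read on the strand of the RNA, each of the 3 pentamers is itself a DRACH match, and windows over the short exons also take in bases of the introns beside them. These 3 pentamers do not occur in any of the 9 repeat units.

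The sequences of other highly ranked sites show how these clusters differ in base composition, with DRACH matches in capitals, 5′ to 3′ on the minus strand of mm10, over the bases covered in both replicates. The stretch in exon 4 has 28.8% G or C and includes the 1 base past the exon, and that at chr11:103498274-103498374 in exon 1 has 49.5%. CA makes up 5.56% of the dinucleotides of the former and 9% of those of the latter, below the share in the array.
exon 4 site, chr11:103492140-103492212: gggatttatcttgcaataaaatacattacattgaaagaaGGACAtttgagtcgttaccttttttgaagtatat
exon 1 site, chr11:103498274-103498374: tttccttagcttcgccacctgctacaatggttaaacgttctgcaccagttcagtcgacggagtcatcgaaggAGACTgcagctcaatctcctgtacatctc
exon 1 site, chr11:103503334-103503386: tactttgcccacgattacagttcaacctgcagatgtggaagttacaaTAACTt
exon 1 site, chr11:103497452-103497526: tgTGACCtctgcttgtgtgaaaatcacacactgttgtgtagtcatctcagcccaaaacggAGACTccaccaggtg

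Gm884, the next gene of the same kind on this strand (chr11:103534577-103621140), gave a comparison within the family. Its first exon has 8264 bases, and its exons 2 to 7 have the same lengths as those of Lrrc37a, with 81.9% to 97.2% identical bases in the aligned part. It held more clusters than Lrrc37a, 119 in replicate 1 and 77 in replicate 2, but fewer of them were significant, 17 and 19. Over all clusters 4.92% and 13.2% were significant. Gm884 still ranked 34 and 57 among all genes by number of significant clusters. Of these clusters, 82.4% and 84.2% had their centre in coding sequence. The significant clusters of Gm884 had a median log2(fold change) of 2.64 and 2.54, with at most 57 and 52 IP reads. Its significant clusters also lay mostly in exon 1, with 13 and 12 there, while exons 3 to 8 of Gm884 held 0 significant clusters in both replicates. Exons 3 and 8 are 97.2% and 96.6% identical between the genes in the aligned part. How reads were placed between the genes was not tested, so the contrast in these exons is not firm.

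The first exons of both genes aligned over 2313 columns with 67.0% identical bases. In exon 1 of Gm884 no run of bases repeated at a distance of 39 was found. The best local alignment of the array to that exon had 106 columns with 67.9% identical bases, and 2 words of 12 bases and 0 words of 20 bases were shared. The stretch of the top site did have counterparts, with 5 copies at 70% identity or more, of which 3 overlapped a significant cluster in replicate 1 and 2 in replicate 2. Of all windows of 57 bases in that exon, 17.1% and 15.8% did. The closest copy, chr11:103618033-103618089, was 84.2% identical and had a log2(fold change) of 2.61 (36 IP and 10 SMInput reads) in replicate 1 and of 2.72 (33 and 18 reads) in replicate 2. The copy with the highest values among these 5, chr11:103617670-103617726, was 80.7% identical and had 3.22 and 3.17. The corresponding values of the top site in Lrrc37a were 5.57 and 5.24. The difference between the genes was not tested, since Lrrc37a had been chosen by its values. The 3 closest copies in Gm884 are given, the last of them significant in replicate 1 alone (log2(fold change) 2.26), printed 5′ to 3′ on the minus strand of mm10, with capitals for the bases that differ from the top site of Lrrc37a.
Gm884 copy, chr11:103618033-103618089: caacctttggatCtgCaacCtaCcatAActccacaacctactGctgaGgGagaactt
Gm884 copy, chr11:103617670-103617726: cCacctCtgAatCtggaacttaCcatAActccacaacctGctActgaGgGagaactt
Gm884 copy, chr11:103618402-103618458: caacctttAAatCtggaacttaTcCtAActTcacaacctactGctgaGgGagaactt

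Among the other protein-coding genes within 200 kb of the window, Lyzl6, a lysozyme-like gene, had 7 significant clusters of 14 in replicate 1 and 9 of 11 in replicate 2, with 5 sites shared by the replicates, as many as Gm884. Per kb of coding sequence it had 9.01 and 11.3 significant clusters, more than Lrrc37a. Gosr2, which encodes a SNARE protein of the Golgi, had 2 of 21 and 6 of 16, with 1 shared site. Arhgap27, Map3k14 and Plekhm1 had 0 significant clusters of 1, 18 and 16 in replicate 1. In replicate 2 they had 0 of 1, 3 and 8, and Rprml held 0 clusters in either replicate. Over all clusters 4.92% and 13.2% were significant, so nothing can be read from 0 among so few. No other gene whose symbol starts with Lrrc37 was in the annotation.

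Likeness to Lrrc37a was measured among 769 genes as a distance over 4 numbers. These were the log2 numbers of significant clusters and the shares of them in coding sequence in both replicates. The shares were given a weight of 4. Those of Lrrc37a are not directly comparable, as no untranslated region is annotated in it. The 5 protein-coding genes with the smallest distance were taken as most like Lrrc37a. They were Nsun4, which encodes a mitochondrial RNA methyltransferase (distance 0.665), Prr30 (0.675), R3hdm1 (1.53), Sox30, a transcription factor of spermiogenesis (1.84), and Pom121l2 (1.88). Nsun4 had 43 and 42 significant clusters, 83.7% and 90.5% of them in coding sequence, and 13 shared sites. Prr30 had 35 and 31 with 94.3% and 100%, but only 4 shared sites, counted with touching clusters joined. Both had larger best fold changes than Lrrc37a, with a log2(fold change) of 6.03 and 5.99 for Nsun4 and of 6.19 and 5.68 for Prr30. The coding sequence of Prr30 has 1203 bases, and 33 of its 35 significant clusters in replicate 1 had their centre there.

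Among the other genes picked elsewhere for many sites, St6galnac2 had 63 and 56 significant clusters and 10 shared sites, with 58.7% and 64.3% of the clusters in coding sequence. Reep6 had 35 in both replicates with 8 sites, and Spata3 had 32 and 25 with 5 sites. Prrc2a had 10 and 6 with 4 sites, all of these clusters in coding sequence. So were those in replicate 1 of Lrrc37a, but there no untranslated region is annotated.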

How the data were processed

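The authors trimmed adapters with cutadapt, removed ribosomal RNA with Bowtie2, aligned reads to mm10 with STAR, collapsed duplicates by molecular identifiers and called clusters with Clipper in each replicate. The deposited −log10(P value) compares IP with SMInput reads of a cluster by a chi-square or Fisher's exact test, and the deposited log2(fold change) is the ratio of IP to SMInput reads scaled to library totals.

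Here, library totals and the reads of each cluster were recovered as the whole numbers that return both listed values, with 1 solution for 98.8% and 99.1% of clusters with a P value between the limits of the tables, and for 56 of 57 and 50 of 50 clusters of the locus. On simulated read numbers, made with the same library totals and the same form of the P value, 100% and 99.7% were found. That check shows only how often a solution is unique. It does not test the library totals or the form of the P value. Regions came from basic GENCODE M21 transcripts at the cluster centre, and gene models of the same symbol were counted together. Sites joined overlapping or touching significant clusters of both replicates. Named clusters were the top 5 per replicate, the 12 sites whose smaller log2(fold change) of both replicates was largest, and those beside each threshold. The copies of the top site were added after seeing the data. Sequences came from the GRCm38 genome of RefSeq, with alignments by Biopython 1.88, and intervals by scipy 1.17.1. Members and lists were chosen with earlier results of these data known, and no test was made. Alternatives covered thresholds, overlap, joining, each replicate alone, annotation, motif window and word length.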

Additional observations from a re-analysis of the deposited data

How the results depend on the processing

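Of 32 alternative values, 22 stayed within 1.5 times the count given or within the interval of the share. With both thresholds at 3, the significant clusters of replicate 2 fell from 41 to 27 and the shared sites from 18 to 9, and those of replicate 1 went from 46 to 32. With 1 replicate alone there were 27 to 30 sites (30 without replicate 1), which need not recur in the other. In the cluster itself, without flanks, fewer motifs were found because the stretch is shorter: DRACH in 65.2% and 73.7% of clusters in replicates 1 and 2 (61.1% and 59.2% over all significant coding clusters), AAACC in 6.52% and 5.26% (5.47% and 4.78%), and GAACA in 10.5% in replicate 2 (5.97%). With words of 50 bases, 100% and 97.6% of significant clusters had no copy elsewhere. Outside the 39-base array, an alternative chosen after seeing the data, 40 and 36 significant clusters and 18 sites were left, and the predicted RefSeq model, also added then, gave the same coding shares. Each value compares the IP with the SMInput of its own replicate, and no test across the replicates was made. With 2 replicates and few SMInput reads in most clusters, single weak clusters are uncertain, and the depth of the SMInput differed between the replicates.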
